A study of Mus musculus with 66 samples.

Results

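Cd44 and Cd80 are 2 genes for cell surface proteins whose mRNA levels were followed in C2C12 cells, a mouse myoblast line that fuses into myotubes when serum is withdrawn. They are 2 of 22489 genes in the mRNA-Seq data. Levels are in FPKM, fragments counted on a gene relative to its exon length and to all mapped fragments of the library, and both members averaged 1 FPKM or more over the libraries, as did 10954 genes in all. The pair was chosen by its measured values, which were lower in differentiated lines carrying an H3.3-type histone than in those carrying H3.1, H3.2 or H3t, so the difference between these lines is described here without a test. Growing cells were kept in 20% fetal bovine serum, and differentiated cells were harvested after 48 hours in 2% horse serum. The 10 lines were C2C12 without a transgene (WT) and 9 lines with a GFP-tagged H3 histone under a doxycycline-inducible promoter, each line having 1 growth library and 1 differentiated library. The 3 H3.1/H3.2-type lines carried GFP-H3.1, GFP-H3.2 or GFP-H3t, and the table heads the columns of the last one H3mmT. The 6 H3.3-type lines carried GFP-H3.3 or its relatives GFP-H3mm7, GFP-H3mm11, GFP-H3mm12, GFP-H3mm13 or GFP-H3mm16. All 9 GFP-H3 lines had been transfected, kept in doxycycline and G418, and sorted for GFP, whereas WT had not, and the methods also speak of them as stable clones. With a single line per variant, the effect of a variant cannot be told apart from a property of the line that carried it.

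Cd44 is a transmembrane receptor for hyaluronan, the long sugar chain of the pericellular matrix. It also binds osteopontin and other matrix proteins, is linked to the actin cortex by ezrin, radixin and moesin, and is shed from the surface by membrane proteases. In muscle it is known from migrating and fusing myoblasts. Cd80, also called B7-1, is a ligand of the T cell receptors Cd28 and Ctla4 and is best known from dendritic cells, macrophages and B cells, where together with Cd86 it delivers the second signal that a T cell needs to respond.

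In mm9 coordinates, Cd44 (ENSMUSG00000005087.10) lay on the minus strand of chromosome 2 between bases 102651298 and 102741822, with 14 annotated transcripts of which 13 were protein coding, of 5 to 19 exons. Cd80 (ENSMUSG00000075122.3) lay on the plus strand of chromosome 16 between bases 38459013 and 38495821, with 3 protein-coding transcripts of 4 to 7 exons. No annotated gene overlapped Cd80, and a U6 small nuclear RNA gene on the other strand was the only one within Cd44. The FPKM values are per gene, so they do not say which Cd44 splice form was made.

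The promoter sequences of the pair are shown because both genes differed in the same direction between the types of line. They are RefSeq sequences of build GRCm38.p6 at chr2:102901616-102901915 (minus strand, Cd44) and chr16:38458683-38458982 (plus strand, Cd80), written 5′ to 3′. Each run matched exactly 1 place on its mm9 chromosome, and the RefSeq start sites fell on the first base of the mm9 genes. Capitals mark matches on either strand to 5 motifs. They were the E-box, CANNTG, and a loose form of the AP-1 site, TGANTCA, with any base in the middle. Added to these were the GC box, which is GGGCGG, and the TATA box, spelled TATAAA. The last was a loose form of the MEF2 site, CTA and TAG parted by any 4 bases. A match to either loose form need not be a site for the factor.
Cd44: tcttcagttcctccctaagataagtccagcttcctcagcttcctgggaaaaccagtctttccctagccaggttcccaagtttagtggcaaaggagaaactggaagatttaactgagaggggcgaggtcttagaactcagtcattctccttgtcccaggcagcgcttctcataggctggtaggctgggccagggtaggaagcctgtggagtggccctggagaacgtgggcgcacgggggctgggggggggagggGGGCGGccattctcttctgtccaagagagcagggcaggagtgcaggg
Cd80: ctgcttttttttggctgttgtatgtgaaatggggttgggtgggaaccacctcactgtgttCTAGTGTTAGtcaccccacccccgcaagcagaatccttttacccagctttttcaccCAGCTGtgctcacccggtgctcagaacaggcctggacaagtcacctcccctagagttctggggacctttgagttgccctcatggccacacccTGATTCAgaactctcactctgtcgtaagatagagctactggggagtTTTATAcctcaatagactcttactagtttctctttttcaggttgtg
None of these 5 motifs was shared by the 2 windows. A sixth motif, a loose form of the NF-kB site (GGG, any 5 bases, CC, not in capitals), matched 2 times in each window. It was found in 50.8% of windows, and 1 of the Cd44 matches overlapped the GC box. The CCAAT box (CCAAT) was in neither window, against 37.4% of all windows. The Cd44 window held a GC box, as did 35.7% of the 32851 promoter windows of the same length, and none of the other 4. The Cd80 window held an E-box (CAGCTG) whose first base lay 134 bases upstream of the start, a motif found in 72.3% of windows. A match to the loose AP-1 form, TGATTCA (7.81% of windows), began 42 bases upstream. A match to the loose MEF2 form, CTAGTGTTAG (3.69%), began 190 bases upstream. The TATA match, TTTATA on the other strand (13.6%), began at base 5 counted from the start site, downstream of it. No 2 of these 4 matches overlapped. These are matches of letters and were not tested as binding sites.

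Both genes were expressed in every library. Cd44 was among the higher genes of the table, with 90.2% to 97.4% of all genes below it in the same library. Cd80 was lower, with 77.6% to 93.1% of genes below it. In each of the 20 libraries Cd44 FPKM was above Cd80 FPKM.

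In growing cells the types of line overlapped for both genes. Cd44 stood at 98.7 FPKM in the H3.1 line, 132 in the H3.2 line and 147 in the H3t line. In the H3.3-type lines it stood at 70.6 FPKM with H3.3, 78.5 with H3mm7, 97.2 with H3mm11, 122 with H3mm12, 100.3 with H3mm13 and 96.5 with H3mm16, so that 4 of 6 were below every H3.1/H3.2-type line. Cd80 was 22.3, 15.5 and 22.6 FPKM in the H3.1, H3.2 and H3t lines. The 6 H3.3-type lines, in the same order as above, had 19.0, 15.6, 17.5, 23.2, 14.5 and 14.8 FPKM of Cd80, 2 of them below every H3.1/H3.2-type line. WT cells had 119 FPKM of Cd44, within the range of both types, and 29.9 FPKM of Cd80, the highest of the 10 growth libraries.

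After differentiation the types did not overlap for either gene. In bulk RNA, fewer cells expressing a gene and less of its RNA per cell cannot be told apart. Cd44 was 152, 98.4 and 143 FPKM in the H3.1, H3.2 and H3t lines. It was 51.8, 44.5, 54.9, 63.4, 55.9 and 54.9 FPKM in the 6 H3.3-type lines, given in the same order as for growth. The lowest H3.1/H3.2-type line was 1.55 times the highest H3.3-type line. Cd80 was 53.5, 49.0 and 55.9 FPKM in the H3.1, H3.2 and H3t lines, and it was 19.5, 18.4, 20.9, 21.6, 20.2 and 22.1 FPKM in the same 6 H3.3-type lines. The gap was wider for Cd80, with the lowest H3.1/H3.2-type line at 2.22 times the highest H3.3-type line.

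**Figure D1:**
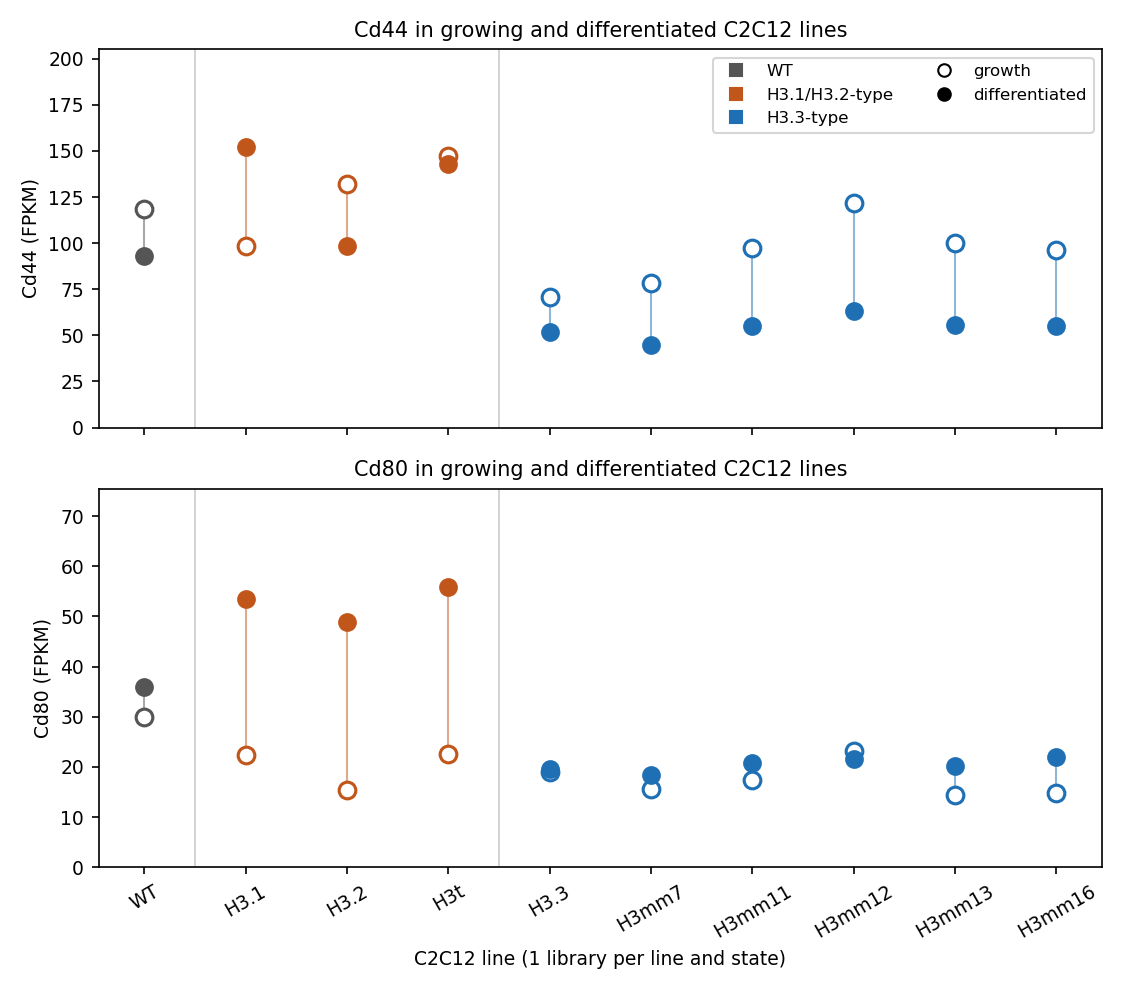
Level of Cd44 (top) and Cd80 (bottom) in FPKM, on axes that start at 0, in each of the 10 lines. Open circles are growth libraries and filled circles differentiated libraries, joined within a line and coloured by type. Filled blue circles (H3.3-type) lie at 44.5 to 63.4 FPKM for Cd44 and 18.4 to 22.1 FPKM for Cd80, below all filled orange circles (H3.1/H3.2-type), and WT lies between.

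On the scale of log2(FPKM + 1), the mean of the 6 H3.3-type lines minus that of the 3 H3.1/H3.2-type lines after differentiation was -1.24 for Cd44, with a pooled SD within types of 0.23, and -1.33 for Cd80, with a pooled SD of 0.094. As ratios of geometric means, the H3.3-type lines had 0.419 of the Cd44 and 0.387 of the Cd80 of the other type. In growth the differences were -0.42 for Cd44 (pooled SD 0.28) and -0.20 for Cd80 (pooled SD 0.26), or ratios of 0.747 and 0.867. The growth difference of Cd80 was smaller than the spread within types and lay between -0.37 and -0.10 when a line was left out, the ends being the H3.2 and the H3t line. Over all 10954 genes, 2.94% had all 6 H3.3-type libraries below all 3 H3.1/H3.2-type libraries after differentiation and 4.01% in growth. These shares stand beside the pair as background only, since the pair was chosen for this difference.

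WT cells, which belong to neither type, lay between the types after differentiation. Their Cd44 was 92.9 FPKM, next below the H3.2 line and 1.47 times the H3mm12 line, the highest of the H3.3-type lines. Their Cd80 was 36.0 FPKM, where the H3.2 line above was 1.36 times and the H3mm16 line below was lower by a factor of 1.63. For Cd80 both steps exceeded the pooled SD within types, and for Cd44 the step down to the H3mm12 line did. That SD comes from the values by which the pair was chosen, which favours a small SD. WT is a single library, so its place between the types was not tested.

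Ordered from high to low, the differentiated lines ran H3.1, H3t, H3.2, WT, H3mm12, H3mm13, H3mm11, H3mm16, H3.3 and H3mm7 for Cd44. The order for Cd80 was H3t, H3.1, H3.2, WT, H3mm16, H3mm12, H3mm11, H3mm13, H3.3 and H3mm7. Of the 9 neighbouring pairs in each order, 2 differed by more than the pooled SD for Cd44 and 3 for Cd80, so most neighbours did not differ beyond the spread. H3.3 and H3mm7 were the lowest 2 lines for both genes, although among the H3.3-type lines no neighbouring pair differed by more than that spread. In growth only 1 of 9 neighbouring pairs did so for each gene: for Cd44 it was the step from H3mm16 to H3mm7 and for Cd80 that from WT to H3mm12.

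The H3.3-type lines were also more alike after differentiation than before. For Cd44 the coefficient of variation over the 6 lines was 19.2% in growth and 11.3% after differentiation. For Cd80 it was 19.1% and 6.68%. The 3 H3.1/H3.2-type lines went from 20.1% to 6.67% for Cd80, while their Cd44 varied by 19.7% and 21.9%. These are descriptions of 6 and 3 lines, and the change in spread was not tested. Choosing the pair by its separation in the differentiated libraries favours a small spread within types there.

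The next comparison asked how the pair changed when cells stopped growing and differentiated, which is given as a description, since the values that chose the genes enter it. Cd44 was lower after differentiation in 9 of 10 lines. In the H3.3 line the growth level was 1.36 times the differentiated level, and in the other 5 H3.3-type lines it was 1.76 to 1.92 times, from 78.5 to 44.5 FPKM for H3mm7 and from 122 to 63.4 FPKM for H3mm12. The same factor was 1.34 in the H3.2 line and 1.28 in WT. The H3t line moved least, from 147 to 143 FPKM. The H3.1 line was the exception, where Cd44 went from 98.7 to 152 FPKM, 1.54 times the growth level.

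Cd80 went the other way and was higher in 9 of 10 lines. It reached 2.40 times the growth level in the H3.1 line, 3.16 times in the H3.2 line and 2.47 times in the H3t line. In the H3.3-type lines the differentiated level was 1.03 (H3.3), 1.18 (H3mm7), 1.19 (H3mm11), 1.39 (H3mm13) and 1.49 (H3mm16) times the growth level, and it was 0.930 times the growth level in the H3mm12 line. WT reached 1.20 times, within the range of the H3.3-type lines.

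**Figure D2:**
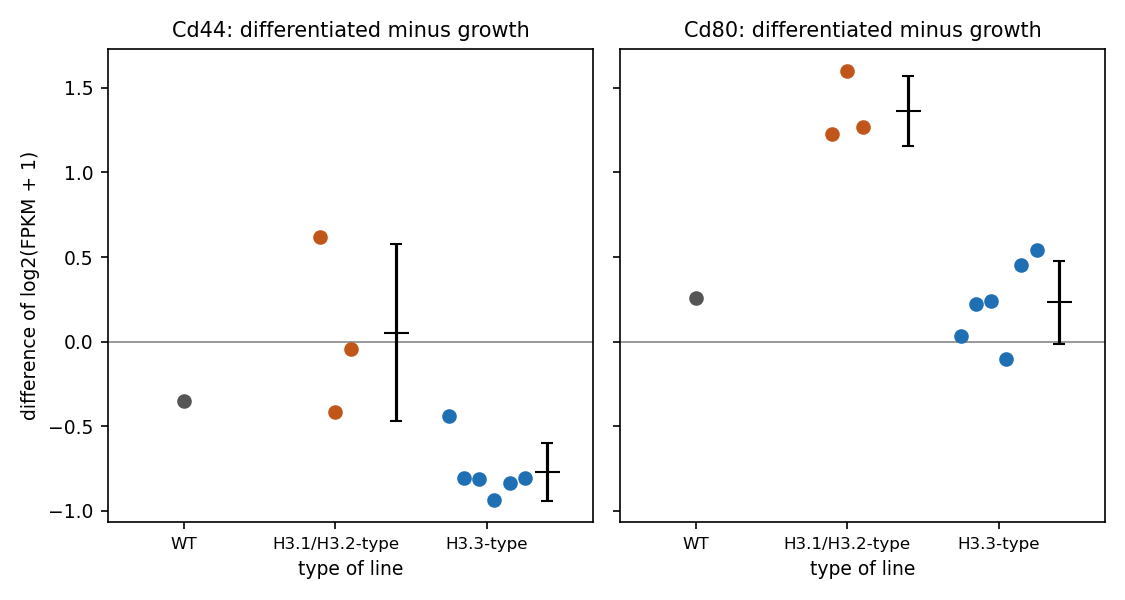
Change with differentiation in each line as a difference of log2(FPKM + 1), for Cd44 (left) and Cd80 (right), with points for lines, grouped by type, and bars for the mean ± SD of the 3 or 6 lines. All 6 H3.3-type points lie below 0 for Cd44, and all 3 H3.1/H3.2-type points lie between 1.23 and 1.60 for Cd80, above every other line.

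Over the 10 lines the mean change of log2(FPKM + 1) was -0.48 for Cd44, with an SD of 0.48 over lines, and 0.57 for Cd80, with an SD of 0.58. In the limma fit over 20 libraries the SE was 0.21 for Cd44 and 0.22 for Cd80. With the line as a block, which pairs the growth and differentiated library of the same line, the differences were the same, -0.48 and 0.57, with an SE of 0.14 and 0.17. No p is given for the pair, because it was chosen from these libraries. For other genes a call required a limma p, adjusted over all 10954 genes by the Benjamini-Hochberg method, to be under 0.05 and the size of the difference to reach 1 on this scale, which neither member reached. Of all genes 8.87% were called higher and 8.41% lower after differentiation.

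The average over lines covered unlike changes in the 2 types. For Cd44 the mean change was -0.77 (SD 0.17, n = 6) in the H3.3-type lines and 0.05 (SD 0.52, n = 3) in the H3.1/H3.2-type lines, where the H3.1 and the H3.2 line went in opposite directions. For Cd80 it was 0.23 (SD 0.24, n = 6) and 1.36 (SD 0.21, n = 3). The difference between the types in these changes was not tested, since it follows from the values by which the genes were chosen. Leaving out the H3.1 line gave a mean change of -0.60 for Cd44, and leaving out the H3.2 line gave 0.46 for Cd80.

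The ratio of the genes, looked at after their values were seen, went the same way in every line. Cd44 FPKM divided by Cd80 FPKM was 4.43 in the H3.1 line, 8.52 in the H3.2 line and 6.50 in the H3t line in growth, 3.71 to 6.93 in the 6 H3.3-type lines and 3.97 in WT. After differentiation it was 2.84, 2.01 and 2.56 in the same 3 lines, 2.42 to 2.93 in the H3.3-type lines and 2.58 in WT. The ratio was therefore lower after differentiation in 10 of 10 lines, and the growth and differentiated ranges did not overlap. The mean change in log2 ratio was -1.09 (SD 0.48 over 10 lines), given without a test because the values prompted the ratio. After differentiation the ratio did not separate the types, with both of their ranges overlapping, and WT lay inside them.

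**Figure D3:**
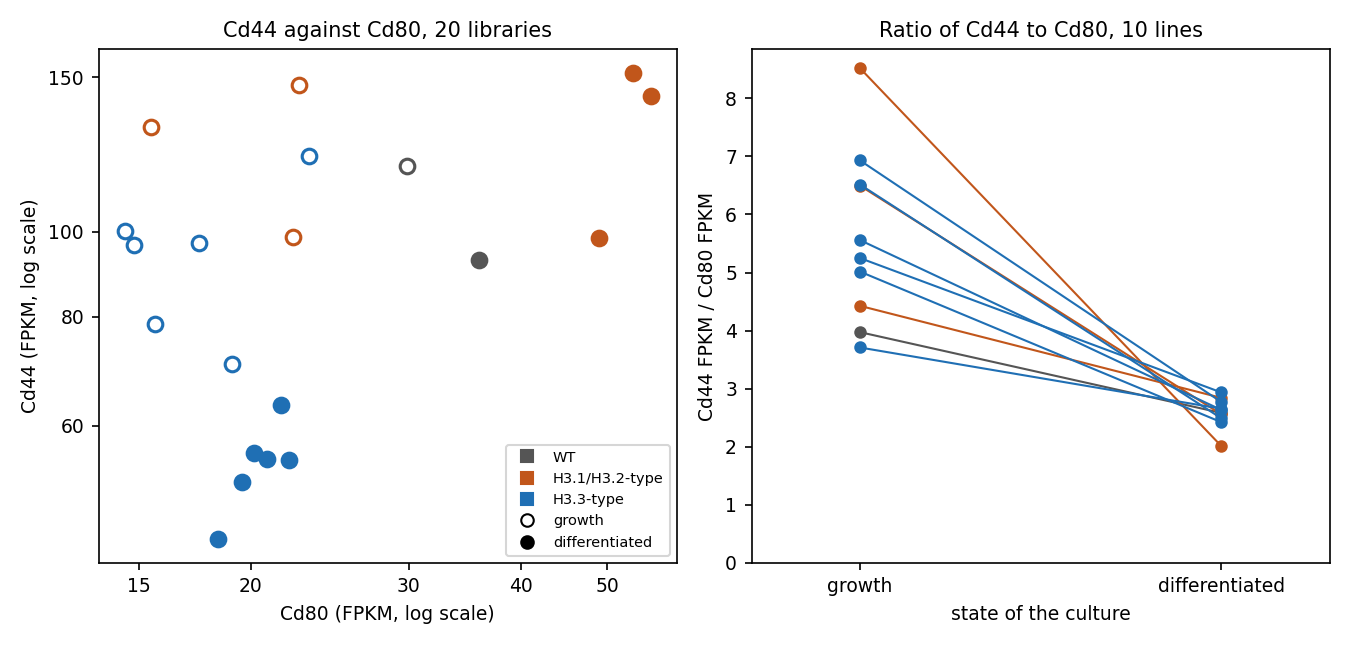
Left, Cd44 against Cd80 in FPKM on log axes in 20 libraries, with open symbols for growth, filled symbols for differentiated cells and colours for the type of line. Right, the Cd44 to Cd80 ratio of FPKM for each of the 10 lines in both states, on an axis from 0, where all 10 lines fall, from between 3.71 and 8.52 to between 2.01 and 2.93.

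The levels of the genes followed each other more closely after differentiation than in growth. Over the 10 differentiated lines Pearson's r of log2(FPKM + 1) was 0.97 (Spearman's rho 0.90), and over the 6 H3.3-type lines alone it was 0.83 (rho 0.60). Over the 10 growth libraries r was 0.37 (rho 0.33), and over all 20 libraries it was 0.42 (rho 0.37). With the mean of each state subtracted, r over 20 libraries was 0.85. These values are descriptions: the differentiated lines fall into the separate groups that chose the genes, and values from the same library share its normalization.

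Total FPKM moved with the type of line after differentiation. The FPKM of a library summed to between 583613 and 652841 in the H3.1/H3.2-type lines and to between 702942 and 894105 in the H3.3-type lines. The WT libraries stood apart, with sums of 409319 in growth and 465247 after differentiation and with fewer genes above 0, 13858 and 14254 against 14540 to 16865 in the other libraries. Scaling each library to the same upper quartile gave a type difference after differentiation of -1.26 for Cd44 and -1.34 for Cd80, and quantile normalization gave -1.30 and -1.35.

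The labelled cell type was checked with marker genes. Of 12 skeletal muscle markers in the table all 12 were tested. After differentiation 10 were called higher and none lower, where 8.87% and 8.41% of all genes were. Among the 10 was Myog, a transcription factor of early myotubes, which was 0.106 to 23.1 FPKM in growth and 329 to 1151 FPKM after differentiation (higher in 10 of 10 lines, limma adjusted p = 1.49e-10). Ckm, the muscle creatine kinase, was another, and went from 0 to 1.36 FPKM to 94.9 to 607 FPKM (limma adjusted p = 3.25e-13). The summed level of the muscle markers also differed between types in growth, with 266 to 311 FPKM in the H3.1/H3.2-type and 418 to 836 FPKM in the H3.3-type lines. After differentiation these sums overlapped, at 5958 to 13768 and 5543 to 27668 FPKM. Myog was the only marker called between types, higher in growing H3.3-type lines (limma adjusted p = 0.0245). In that comparison 0.164% of all genes were called higher and 0.0456% lower. Growing H3.3-type lines had 7.35 to 23.1 FPKM of Myog, against 0.106 to 3.21 FPKM in growing H3.1/H3.2-type lines. The limma adjusted p of Myog passed 0.05 without the H3.1 (0.107), H3mm7 (0.0571), H3mm13 (0.078), H3mm16 (0.0517) or H3t line (0.144), and it was 0.0841 with no filter on low values. The part of these marker levels in the Cd44 and Cd80 values was not tested.

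Markers of the cell types in which Cd80 is best known were low or at 0. Of 15 leukocyte markers 14 were found and 2 passed the filter of a mean of at least 1 FPKM, and neither was called in any comparison. Between states 8.87% of all genes were called higher and 8.41% lower, and between types 0.0456% to 0.529% per state and direction. With 2 genes tested, no call is the usual outcome at such shares. Ptprc, the CD45 antigen of all leukocytes, was at most 0.0662 FPKM, Cd3e of T cells was at most 0.0204 FPKM, and Emr1 of macrophages was listed at 0 in all 20 libraries. Other myeloid markers were above 0: Cd68, a lysosomal protein of macrophages, was 0.257 to 3.90 FPKM, Lyz2 reached 2.16 FPKM and Cd53 reached 1.42 FPKM. The summed leukocyte markers lay at 7.73 to 10.7 FPKM in differentiated H3.1/H3.2-type lines and at 3.74 to 10.5 FPKM in H3.3-type lines, with Cd14, a coreceptor for bacterial lipopolysaccharide that is not confined to leukocytes, at 2.54 to 8.21 FPKM over the 20 libraries. Of 7 endothelial markers 1 was tested, the cadherin Cdh5, which fell after differentiation (difference -1.02, limma adjusted p = 0.0028, and -0.97 without the H3mm11 and -0.98 without the H3mm13 line), and summed endothelial markers were 0.242 to 7.71 FPKM. Of 6 adipocyte markers 2 were tested and none was called, against the same shares of all genes, and the sums lay at 7.14 to 34.9 FPKM. The largest share came from Pparg, a transcription factor of fat cells, at 14.4 to 29.8 FPKM in growth and 6.77 to 17.5 FPKM after differentiation (difference -0.72, lower in 10 of 10 lines, limma adjusted p = 0.000434, under the size of a call). Fabp4, a fatty acid carrier, was at most 4.96 FPKM, and the fat hormone Adipoq at most 0.110 FPKM.

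Genes of the pathways around Cd44 and Cd80 were counted by lists. For hyaluronan, 16 genes that make, cut or bind it were in the table and 7 were tested. After differentiation 1 was called lower and none higher, where 8.41% and 8.87% of all genes were, with a median difference of -0.31 against 0.04 over all genes. Hmmr, the other motility receptor for hyaluronan and a gene of dividing cells, was the one called: it was 26.3 to 42.6 FPKM in growth and 0.962 to 5.45 FPKM after differentiation, lower in 10 of 10 lines with a difference of -3.33 (SE 0.20, limma adjusted p = 1.26e-11). The synthase Has2, named after its values were seen, was 9.82 to 24.5 FPKM in growth and 3.61 to 11.2 FPKM after differentiation, with a difference of -0.72 that did not reach the size needed for a call. None of the 7 was called between types in either state. Of all genes, 0.164% were called higher and 0.0456% lower in growth, and 0.219% and 0.529% after differentiation. With shares this low, a list of 7 would seldom hold a call. In differentiated cells Hmmr was not called (difference -0.83, limma adjusted p = 0.0522), and it was called lower in H3.3-type lines with a pseudocount of 0.1 (-1.16, adjusted p = 0.0479) and without the H3.2 line (-1.13, adjusted p = 0.00937).

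Of 16 protein partners of Cd44, namely ligands, cytoskeletal linkers, proteases that shed it and receptors it assists, 15 were tested. The median difference after differentiation was 0.04, the same to 2 decimals as that over all genes. Of the 15, 1 was called lower, a share near the 8.41% of all genes, and none higher, where 8.87% of all genes were. It was Spp1, the ligand osteopontin, at 380 to 680 FPKM in growth and 98.1 to 398 FPKM after differentiation, a difference of -1.04 (SE 0.24, lower in 9 of 10 lines, limma adjusted p = 0.00079). Without the H3.3, H3mm7 or H3mm11 line its difference of -0.88, -0.90 or -0.91 was under the size needed for a call. Ezrin, radixin and moesin, named after their values were seen, were each lower in 10 of 10 lines. Their differences of -0.89 for Ezr, -0.43 for Rdx and -0.83 for Msn did not reach the size needed for a call. Other genes of the list, also named after their values were seen, went the other way. Nf2 was higher in 10 of 10 lines (difference 0.44) and Ank3 in 7 (0.34), likewise under that size. None of the 15 was called between types in either state, where 0.0456% to 0.529% of all genes were called per state and direction. Spp1 in differentiated cells was 295 to 398 FPKM in the H3.1/H3.2-type and 98.1 to 336 FPKM in the H3.3-type lines, so that the types overlapped.

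The relatives and receptors of Cd80 were mostly near 0. Of 11 other genes of the B7 ligand and CD28 receptor families, 1 was tested, Cd276 (B7-H3), which was 14.5 to 22.0 FPKM in growth and 5.83 to 17.8 FPKM after differentiation, lower in 10 of 10 lines with a difference of -0.80 (SE 0.15, limma adjusted p = 0.000148), under the size of a call. Cd86, the other ligand of Cd28, was at most 0.00696 FPKM, and the receptor Ctla4 at most 0.0243 FPKM. Cd28 itself was 0.122 to 1.26 FPKM. Cd274, too low to be tested, was 0.0402 to 0.190 FPKM in growth and 0.208 to 1.45 FPKM after differentiation, higher in 10 of 10 lines. Cd276, Cd86, Ctla4, Cd28 and Cd274 were named after their values were seen. Cd80 itself had 14.5 to 55.9 FPKM over the same 20 libraries.

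Of 16 genes of antigen presentation and other costimulation, 5 were tested, with a median difference after differentiation of 0.44 against 0.04 over all genes. B2m, the shared light chain of class I molecules, was the only one called, where 8.87% of all genes were called higher and 8.41% lower. It rose from 322 to 434 FPKM in growth to 532 to 1179 FPKM after differentiation (difference 1.21, SE 0.12, higher in 10 of 10 lines, limma adjusted p = 3.69e-08). No gene of the list was called between types, where 0.0456% to 0.529% of all genes were called per state and direction. Cd74, the invariant chain of class II molecules, which is counted among the Cd44 partners, was named after its values were seen, with 0 to 0.608 FPKM in growth, 0.186 to 0.528 FPKM in differentiated H3.1/H3.2-type lines and 0.106 to 24.2 FPKM in differentiated H3.3-type lines. The class II chain genes H2-Aa, H2-Ab1 and H2-Eb1, named after their values were seen, were at most 0.0977 FPKM.

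Among 14 other surface markers of myoblasts and mesenchymal cells 10 were tested. After differentiation 2 were called higher, the adhesion molecules Ncam1 (difference 2.05, limma adjusted p = 1.01e-08) and Cdh15 (1.49, adjusted p = 3.95e-07), and 3 lower, including Mcam (-2.16, adjusted p = 2.4e-06) and Alcam (-1.73, adjusted p = 0.000118), where 8.87% of all genes were called higher and 8.41% lower. Between types 1 was called, named after its values were seen, in differentiated cells and in the same direction as the pair: Ly6a, the Sca-1 antigen, was 766 to 1480 FPKM in the H3.1/H3.2-type and 185 to 527 FPKM in the H3.3-type lines (difference -1.77, SE 0.35, limma adjusted p = 0.0223). The call was lost without the H3.1 line (limma adjusted p = 0.119), the H3mm11 line (0.0525) or the H3t line (0.0927), and with no filter on low values (0.0547). In that comparison 0.219% of all genes were called higher and 0.529% lower. Unlike Cd44 and Cd80, differentiated WT cells had 297 FPKM of Ly6a, within the range of the H3.3-type lines. In growth Ly6a went the other way, with 200.0 to 349 FPKM in the H3.1/H3.2-type and 399 to 867 FPKM in the H3.3-type lines, a difference of 1.02 that was not called (adjusted p = 0.305).

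**Figure D4:**
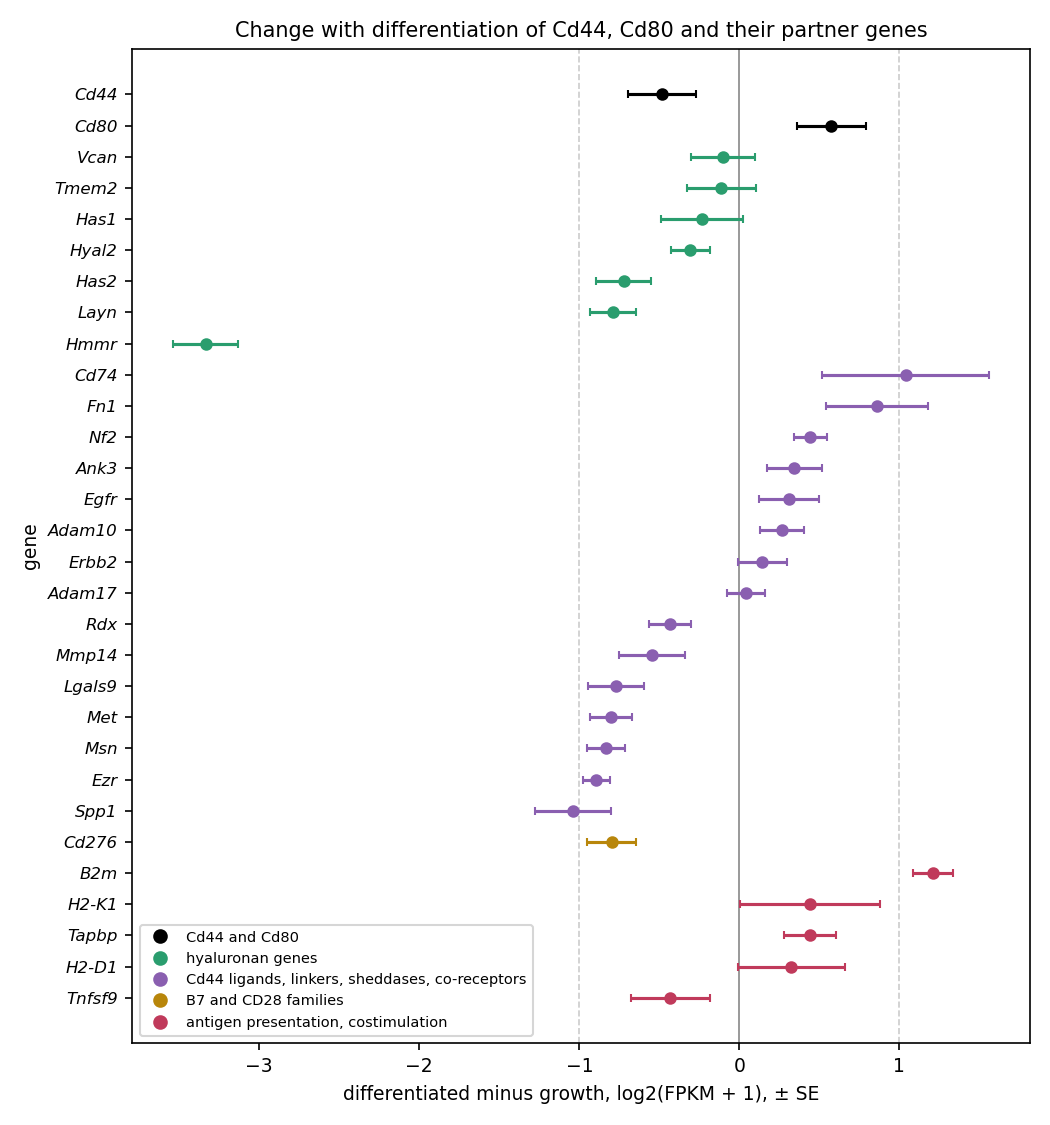
Change with differentiation of Cd44, Cd80 and the tested genes of 4 lists, as a difference of log2(FPKM + 1) ± SE from the limma fit over 20 libraries, with dashed lines at the size needed for a call. Cd44 (-0.48) and Cd80 (0.57) lie inside the dashed lines, and Hmmr (-3.33) lies farthest from 0.

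The genes whose levels were most like those of each member over the 20 libraries were found by Pearson's r of log2(FPKM + 1) among the other 10953 genes tested. For Cd44 they were Trim2 (r = 0.93), a ubiquitin ligase gene, Cdc14b (0.93), a phosphatase gene, Bivm (0.89), Cpne1 (0.89), which encodes a calcium-dependent membrane-binding protein, and Snx6 (0.88), a sorting nexin gene. All 5 were, like Cd44, lower after differentiation on average and lower in differentiated H3.3-type than H3.1/H3.2-type lines, with type differences from -0.71 to -0.46 on the scale of log2(FPKM + 1). The next gene in order had an r of 0.87, so the list has no sharp end.

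For Cd80 they were Zfp74 (r = 0.91), a zinc finger gene, Ccdc80 (0.88), which encodes a secreted matrix protein, Fam126a (0.87), Gnpda2 (0.86), a glucosamine-6-phosphate deaminase gene, and Pdgfd (0.86), a growth factor gene. Ccdc80 was the widest of them: it was 5.57 to 9.68 FPKM in growing H3.1/H3.2-type lines and 5.29 to 12.7 FPKM in growing H3.3-type lines, and after differentiation 31.7 to 75.6 and 6.39 to 19.4 FPKM. It was higher after differentiation in 9 of 10 lines, with a mean difference of 1.07, and 0.87 without the H3.1 line. In WT Ccdc80 went from 16.7 to 34.8 FPKM. Pdgfd had 6.97 to 17.6 FPKM in differentiated H3.1/H3.2-type lines and 2.27 to 6.50 FPKM in differentiated H3.3-type lines.

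The lists for the 2 members had no gene in common. Among the 10953 genes compared, Cd80 was at place 2175 for Cd44 and Cd44 at place 2139 for Cd80 (r = 0.42). Once the mean of each state was subtracted, Cd44 was the fifth gene for Cd80, and Cd80 was at place 15 for Cd44. Promoter windows were found for 9 of the 10 genes. Of these, 6 held an E-box (72.3% of all windows), 5 a GC box (35.7%) and 2 a TATA match (13.6%). The loose AP-1 form matched in 1 of them (7.81% of all windows) and the loose MEF2 form in none (3.69%). The loose NF-kB form matched in 6 (50.8%) and the CCAAT box in 3 (37.4%). Likeness over libraries that fall into groups by state and type reflects those groups, and no p is given for it.

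**Figure D5:**
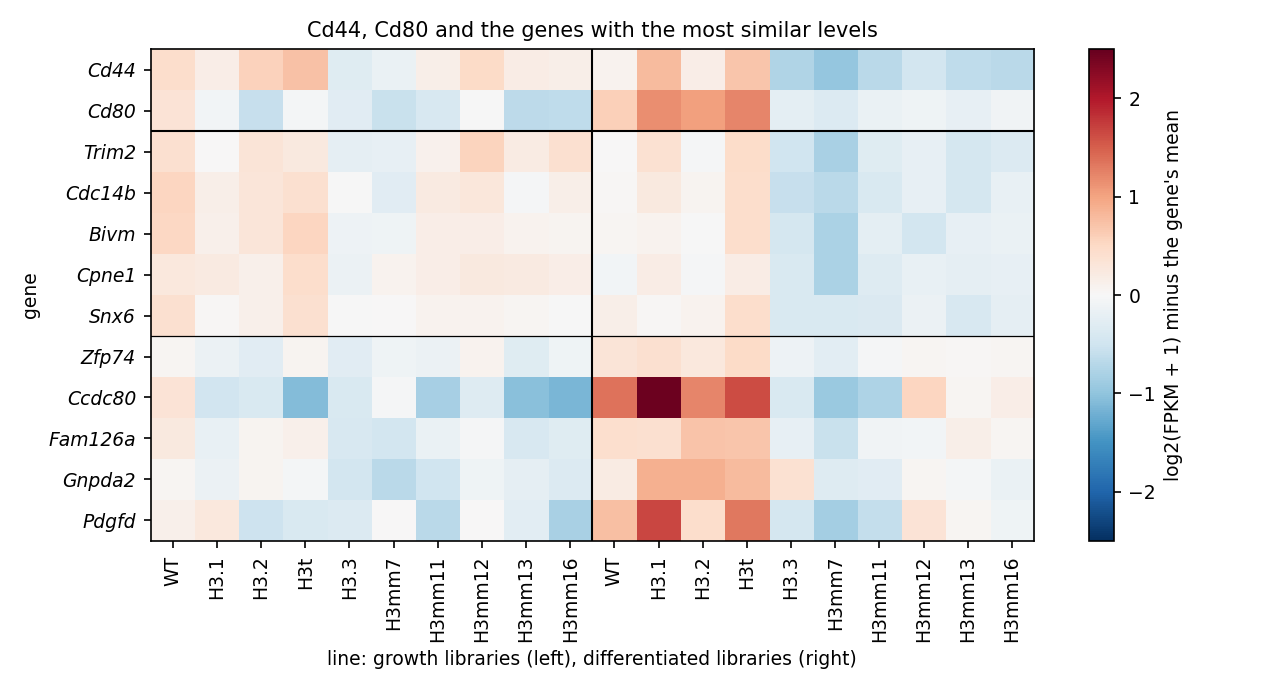
Level of Cd44, Cd80 and the 5 genes most like each of them (Trim2 to Snx6 for Cd44, Zfp74 to Pdgfd for Cd80) in 20 libraries, as log2(FPKM + 1) minus the mean of the gene over libraries, with growth libraries left and differentiated libraries right of the vertical line. Red is above and blue below the mean of the gene: each of the first 5 genes has its lowest value in differentiated H3mm7 or H3mm13 cells, and each of the other 5 has its highest value in a differentiated H3.1/H3.2-type line.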

How the data were processed

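mRNA-Seq was made in 20 libraries of C2C12 lines, 1 for each of 10 lines in 2 states, from RNA that per the labels was reverse-transcribed from an oligo dT primer. Per the submitters' processing notes and the methods, the authors mapped reads to mm9 with TopHat2 2.0.8 and made a deposited table of FPKM per gene with Cufflinks 2.0.1 (Cuffdiff). FPKM are already divided by exon length and by the mapped fragments of the library. The number of reads behind a value is not given in the sources used here, so no counting error can be set beside it. Groups came from the sample labels, and the column headed H3mmT was matched to H3t by elimination. The 1 library per line and state means that the spread is between lines carrying different histones.

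Values were analysed as log2(FPKM + 1). Genes with a mean of at least 1 FPKM (10954) entered limma 3.58.1 (R 4.3.3, trend and robust settings), which was first tested on simulated data, with Benjamini-Hochberg adjustment over all of them, and a call required the adjusted p to be under 0.05 and the size of the difference to reach 1. The state comparison used all 20 libraries. The type comparisons set the 3 against the 6 GFP-H3 lines of each state, without WT. They came from a single fit of the 18 GFP-H3 libraries grouped by type and state, so both states shared an estimate of the spread. Growth and differentiated libraries came from the same lines, which pairs them, so the state comparison was also fitted with the line as a block. The type fit treated the libraries of a line as independent. The planned tests of the change of Cd44 and Cd80 with differentiation were run, but their p-values are not reported, because the genes were chosen from values of the same libraries. The pair, the gene lists and the motifs were chosen with earlier results of these data known. Genes named in the text were the pair, the 5 genes with the highest Pearson r with each, up to 4 called genes of a list by smallest adjusted p, and defining cell type markers, and others are said to be named after their values were seen. The alternatives were other pseudocounts, filters, scalings, limma settings, the line block, the GFP-H3 lines alone and each line left out. ChIP and 3′-end data were not analysed here.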

Additional observations from a re-analysis of the deposited data

Results flagged for a closer look

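Of 26 groups of 6 H3.3-type lines examined for a library far from the others (Cd44, Cd80, their ratio and the similar genes in both states), 1 had such a library by Dixon's criterion, which chance flags in about 1 of 20 groups. Cpne1, 1 of the genes most like Cd44, had 12.4 FPKM in differentiated H3mm7 cells, while the next lowest H3.3-type line had 16.9 FPKM. Neither Cd44 nor Cd80 had a line of this kind, although H3mm7 also had the lowest differentiated value of both.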

How the results depend on the processing

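The values of the pair kept their direction under every alternative run. The type difference in differentiated cells lay between -1.43 and -1.12 for Cd44 and between -1.38 and -1.29 for Cd80 over 14 alternatives. In growth it lay between -0.58 and -0.30 for Cd44 and between -0.41 and -0.10 for Cd80. The change with differentiation lay between -0.60 and -0.43 for Cd44 and between 0.46 and 0.65 for Cd80 over 19 alternatives, and it was -0.48 and 0.57 with the line as a block. The log2 ratio, chosen after the values were seen, changed by -1.15 to -0.97 when a line was left out. Of the 5 genes named as most like Cd44, 3 or 4 were shared with the list under each of the 3 alternatives, and for Cd80 1 or 2.

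Counts of genes called between types were not stable. In growth 23 genes were called (18 higher and 5 lower), against 46 (45 and 1) with a pseudocount of 0.1, 70 (69 and 1) with 0.01, 6 (0 and 6) without a filter, 14 (14 and 0) with a filter at 5 FPKM, and 2 to 25 when a line was left out, the lowest without the H3.1 line. In differentiated cells 82 were called (24 higher and 58 lower), against 134 (35 and 99) with a pseudocount of 0.1, 19 (9 and 10) without a filter, 49 (10 and 39) with a filter at 5 FPKM, and 3 to 295 when a line was left out. The count was 3 without the H3.1 line, 17 without the H3t line and 295 without the H3.2 line. The cause was not tested. The count between states, 1893, was 1429 to 2348 under the other alternatives and 1910 with the line as a block. The number of reads per library, which would set the precision of low values, is not given in the sources used here.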
